A study of Mus musculus with 18 samples.

Results

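The genes that make cholesterol, and those of its SREBP2 control, were followed in fat cells from the bone marrow and from the epididymal depot of mice of 3 ages. The list held 30 genes, chosen by their known function and with earlier results of these data known. Of these, 27 had a probe set naming them alone, among 19938 genes so represented in the table. Where a gene had several such probe sets, the set with the highest mean over the 18 arrays was used, as for Idi1 and Fdft1 with 2 each. Acat2 and Soat1 had none in the annotation used, and the probe set of Mbtps2 also names other genes, so these 3 have no value here.

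The mice were untreated male C57BL/6J on standard chow, 6, 14 or 18 months old. Bone marrow adipocytes came from femurs and tibias, whose marrow was flushed, cleared of red cells by lysis and spun so that fat cells floated. Epididymal adipocytes, called peripheral in the deposited labels, were floated after collagenase digestion. Each of the 6 groups (each cell type at each age) had 3 Affymetrix Mouse Gene 1.0 ST arrays, and each array held a pool of RNA, the pools of a group coming from 6 to 10 animals. Per the study's methods the mice of an age gave both kinds of adipocyte, so that the cell types share animals. Which animals entered which pool was not given in the sources used here, and p values then measure only the spread between pools.

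Cells build cholesterol from acetyl-CoA, by way of mevalonate, isoprenoid diphosphates, squalene and lanosterol. When membranes run short of sterol, the escort protein SCAP carries SREBP2 from the endoplasmic reticulum to the Golgi, where proteases free the part that enters the nucleus and turns on the genes of the whole route. INSIG proteins hold SCAP back when sterol is plentiful, and Insig1 is itself a target of the SREBPs. White adipocytes hold their cholesterol largely unesterified, much of it at the lipid droplet, and draw largely on lipoproteins for it.

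Values are deposited log2 intensities after gcRMA and quantile normalization, and differences are log2 differences from 1 limma model of all 18 arrays. A gene was called at an adjusted p under 0.05 (Benjamini-Hochberg over 23410 probe sets that name a gene). Array medians lay between 5.33 and 5.65, and the lowest were those of 18-month epididymal adipocytes (5.33 to 5.39). The preparations were not sorted. Bone marrow arrays had a mean of 6.43 to 7.23 over 9 mature adipocyte markers and 11.98 to 12.51 over 10 neutrophil markers, against 12.25 to 12.72 and 5.29 to 9.36 on epididymal arrays. Replicate 1 of 6-month epididymal adipocytes stood apart, with a neutrophil mean of 9.36 against 5.74 and 5.48 on the other 2 arrays of its group, and an erythroid mean of 7.35 against 5.81 and 6.02. Fewer cells of a type and less RNA per cell cannot be told apart in such preparations.

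SREBP2 binds sterol regulatory elements, commonly beside a CCAAT box bound by NF-Y, so the RefSeq promoters (GRCm38.p6, 250 bases before to 50 after the start of each gene) were searched for both. The 250 bases before the start are printed for 4 genes on which the results turn, 5′ to 3′ on the plus strand. Hmgcs1 (chr13:119690101-119690350) and Lss (chr10:76531355-76531604) are among the members furthest below epididymal adipocytes in bone marrow, and Idi1 (chr13:8885356-8885605) and Nsdhl (chrX:72918271-72918520) had the largest rises with age in epididymal adipocytes. Capitals mark the element TCACNCCAC and CCAAT or its reverse complement ATTGG.
Hmgcs1: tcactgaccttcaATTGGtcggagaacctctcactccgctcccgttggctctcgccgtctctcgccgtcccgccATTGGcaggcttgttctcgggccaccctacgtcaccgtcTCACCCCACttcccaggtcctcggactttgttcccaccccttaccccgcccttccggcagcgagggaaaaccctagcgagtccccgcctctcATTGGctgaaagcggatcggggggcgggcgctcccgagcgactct
Lss: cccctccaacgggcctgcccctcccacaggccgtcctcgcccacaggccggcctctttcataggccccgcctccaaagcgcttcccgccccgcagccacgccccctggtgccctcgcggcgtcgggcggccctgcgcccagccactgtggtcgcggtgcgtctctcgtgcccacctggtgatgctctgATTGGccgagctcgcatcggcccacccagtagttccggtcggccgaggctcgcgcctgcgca
Idi1: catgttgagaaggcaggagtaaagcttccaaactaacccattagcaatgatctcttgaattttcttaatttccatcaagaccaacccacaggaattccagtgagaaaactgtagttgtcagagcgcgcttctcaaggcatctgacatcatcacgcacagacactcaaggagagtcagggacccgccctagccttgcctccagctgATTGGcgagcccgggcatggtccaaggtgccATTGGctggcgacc
Nsdhl: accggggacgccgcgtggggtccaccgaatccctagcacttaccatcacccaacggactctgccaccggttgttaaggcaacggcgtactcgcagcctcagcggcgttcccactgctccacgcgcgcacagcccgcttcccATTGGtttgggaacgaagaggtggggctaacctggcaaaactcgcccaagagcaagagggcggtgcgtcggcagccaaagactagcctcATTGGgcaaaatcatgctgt

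Among the members with an entry (22 of 27), only Hmgcs1 held TCACNCCAC on either strand, its first base lying 137 bases before the start, and 1.4% of 27025 genes with a promoter did so. Its last 8 letters, CACNCCAC, were in Hmgcs1 and Insig1, 2 of the 22, against 7.1% of all genes. CCAAT, searched on both strands, was in 20 of the 22, against 41.1% of all genes, and was not found in Scap and Mbtps1. The E-box CACGTG was in 5 of 22 (Hsd17b7, Sc5d, Dhcr7, Scap and Insig1), against 8.1% of all genes. Sqle, Fdps, Fdft1, Stard4 and Npc1 had no entry. Only exact matches within these windows were searched, so elements of other spelling or position would be missed. A promoter without a match is thus not shown to lack such an element.

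Most of the pathway was lower in bone marrow than in epididymal adipocytes. Over the 3 ages, 3 of the 27 genes were higher and 23 lower in bone marrow, while 26.9% and 31.2% of all probe sets were. The median difference was -1.17 for the 27 genes and -0.02 for all probe sets. With the 2-fold limit of the study's methods, 1 gene was higher and 14 were lower, against 10.2% and 11.6% of all probe sets. At the single ages 3 were higher and 21 lower at 6 months (22% and 24.3% of all probe sets), 3 and 20 at 14 months (21.6% and 24.2%), and 4 and 23 at 18 months (21.6% and 25.5%). At 18 months all 27 were called, and all 3 bone marrow arrays lay above all 3 epididymal ones for 4 genes (27.5% of all probe sets) and below them for 23 (30.8%). With arrays scaled on 53 ribosomal protein genes, which shifted all probe sets by a median of -0.75, the counts over the ages were 1 higher and 24 lower, against 10.5% and 82.4% of all probe sets.

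**Figure D1:**
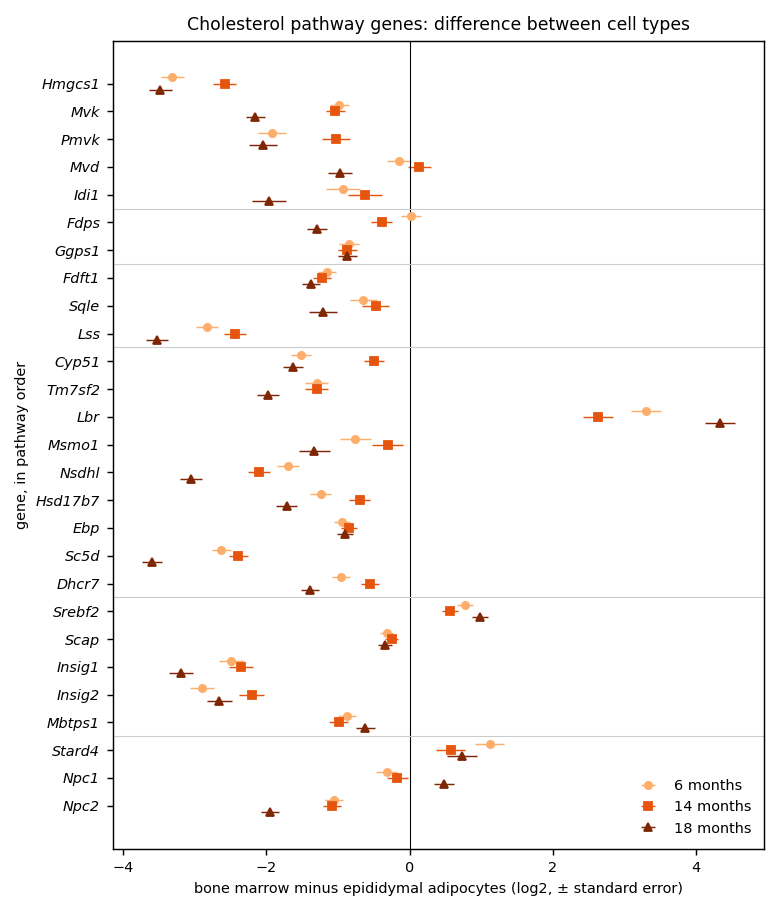
Difference between bone marrow and epididymal adipocytes in log2 units (x axis, bone marrow minus epididymal, bars of 1 standard error) for the 27 genes in pathway order (y axis), at 6, 14 and 18 months. Most genes lie left of 0 at each age, and on the deposited scale Lbr, Srebf2 and Stard4 lie right of it.

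All 5 measured genes of the mevalonate segment were lower in bone marrow (median -1.39). Hmgcs1, the synthase that makes HMG-CoA in the cytosol, had bone marrow values of 6.99, 7.27 and 7.72 at 6 months, 7.93, 7.73 and 8.08 at 14 months and 7.71, 7.29 and 7.40 at 18 months. Epididymal values of Hmgcs1 were 10.78, 10.49 and 10.66 at 6 months, 10.38, 10.44 and 10.66 at 14 months and 10.92, 10.87 and 11.06 at 18 months. Every bone marrow array lay below every epididymal array, with a difference of -3.13 (standard error 0.094, adjusted p = 4.62e-16), the lowest of the 27. Mvk, mevalonate kinase, had 6.83, 6.59 and 6.34 at 6 months, 6.45, 6.56 and 6.49 at 14 months and 6.43, 6.06 and 6.53 at 18 months in bone marrow. Epididymal values of Mvk were 7.60, 7.66 and 7.43 at 6 months, 7.51, 7.50 and 7.59 at 14 months and 8.56, 8.57 and 8.35 at 18 months. The groups did not overlap, and the gap was widest at 18 months, -2.15 against -1.04 at 14 and -0.98 at 6 months, so that the difference over the ages was -1.39 (standard error 0.078, adjusted p = 6.26e-12).

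Idi1, the isomerase that makes dimethylallyl diphosphate, had bone marrow values of 6.82, 7.74 and 7.98 at 6 months, 7.67, 7.51 and 7.66 at 14 months and 7.76, 8.27 and 8.05 at 18 months. Epididymal values of Idi1 were 8.88, 8.32 and 8.12 at 6 months, 8.02, 8.31 and 8.38 at 14 months and 10.10, 9.95 and 9.93 at 18 months. At each age the bone marrow arrays lay below the epididymal ones, and the difference over the ages was -1.17 (standard error 0.14, adjusted p = 2.57e-07), with -1.09 from the gene's other probe set. Pmvk and Mvd, which carry out the next steps after mevalonate kinase, had -1.67 and -0.33. At single ages Mvd was called only at 18 months (-0.97), and it was -0.15 at 6 and 0.14 at 14 months.

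Both prenyl diphosphate synthases and all 3 genes from squalene to lanosterol were lower in bone marrow over the ages. Fdps, farnesyl diphosphate synthase, had 7.92, 7.64 and 7.70 at 6 months, 7.49, 7.42 and 7.07 at 14 months and 7.48, 7.51 and 7.62 at 18 months in bone marrow. Epididymal values of Fdps were 7.88, 7.73 and 7.61 at 6 months, 7.42, 7.84 and 7.89 at 14 months and 8.72, 8.94 and 8.84 at 18 months. At 6 months the cell types overlapped and differed by 0.015 (standard error 0.14), and at 18 months by -1.30 (adjusted p = 2.01e-07). Ggps1, which makes geranylgeranyl diphosphate for protein prenylation, had 7.34, 7.31 and 7.80 at 6 months, 7.44, 7.53 and 7.69 at 14 months and 8.18, 8.14 and 7.99 at 18 months in bone marrow. Epididymal values of Ggps1 were 8.46, 8.37 and 8.16 at 6 months, 8.60, 8.33 and 8.35 at 14 months and 9.05, 8.92 and 8.93 at 18 months. Its difference was nearly the same at each age, -0.85, -0.87 and -0.87.

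Fdft1, squalene synthase, had bone marrow values of 8.21, 8.61 and 8.15 at 6 months, 7.54, 7.69 and 7.51 at 14 months and 8.34, 8.16 and 8.39 at 18 months. Epididymal values of Fdft1 were 9.53, 9.49 and 9.42 at 6 months, 8.58, 8.94 and 8.88 at 14 months and 9.69, 9.65 and 9.67 at 18 months. Both cell types had their lowest arrays at 14 months, and at each age the bone marrow arrays lay below the epididymal ones (-1.25 (standard error 0.074, adjusted p = 1.2e-11) over the ages, -1.62 from the other probe set). Lss, lanosterol synthase, which closes the sterol rings, had 5.48, 5.43 and 5.19 at 6 months, 5.88, 5.36 and 5.64 at 14 months and 5.88, 5.85 and 5.73 at 18 months in bone marrow. Epididymal values of Lss were 8.49, 8.16 and 7.93 at 6 months, 7.86, 8.05 and 8.28 at 14 months and 9.23, 9.41 and 9.40 at 18 months. The groups were far apart at every age, and the difference over the ages was -2.93 (standard error 0.089, adjusted p = 5.68e-16). Bone marrow values of Lss lay near the array medians of all probe sets (5.33 to 5.65). Whether they stood above background was not tested, which limits what the size of the gap can say. Sqle, squalene epoxidase, had -0.78 over the ages and was not called at 14 months (-0.47, adjusted p = 0.052). Without the 6-month epididymal array that stood apart it also missed the threshold at 6 months (-0.52, adjusted p = 0.0520).

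Of 9 genes from lanosterol to cholesterol, 8 were lower in bone marrow and Lbr was higher. Sc5d, the desaturase that puts the ring double bond into lathosterol, had bone marrow values of 8.04, 8.55 and 8.49 at 6 months, 8.38, 8.26 and 8.55 at 14 months and 8.19, 7.90 and 7.93 at 18 months. Epididymal values of Sc5d were 11.09, 10.94 and 10.92 at 6 months, 10.70, 10.72 and 10.95 at 14 months and 11.64, 11.56 and 11.62 at 18 months. No array of a cell type reached into the other, and the difference was -2.87 (standard error 0.078, adjusted p = 1.1e-16). Nsdhl, the dehydrogenase that helps to remove the methyl groups of lanosterol, had 7.44, 7.28 and 7.22 at 6 months, 7.43, 7.20 and 7.11 at 14 months and 7.37, 7.47 and 7.40 at 18 months in bone marrow. Epididymal values of Nsdhl were 9.31, 9.08 and 8.66 at 6 months, 9.04, 9.49 and 9.51 at 14 months and 10.44, 10.45 and 10.51 at 18 months. Bone marrow stayed within a narrow band while the epididymal arrays were highest at 18 months, with a difference of -3.05 there and -2.28 (standard error 0.088, adjusted p = 1.81e-14) over the ages.

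Msmo1, the oxidase that starts that demethylation, had 8.02, 8.67 and 9.38 at 6 months, 9.67, 9.61 and 9.76 at 14 months and 9.42, 9.43 and 9.14 at 18 months in bone marrow. Epididymal values of Msmo1 were 9.67, 9.33 and 9.35 at 6 months, 9.87, 10.01 and 10.07 at 14 months and 10.69, 10.68 and 10.63 at 18 months. The bone marrow arrays of 6 months were spread more widely than those of any other group, and the difference over the ages was -0.80 (standard error 0.13, adjusted p = 1.44e-05). Cyp51, lanosterol demethylase, had 5.51, 5.75 and 6.00 at 6 months, 6.21, 6.34 and 6.50 at 14 months and 6.44, 6.60 and 6.60 at 18 months in bone marrow. Epididymal values of Cyp51 were 7.57, 7.14 and 7.08 at 6 months, 6.84, 6.78 and 6.91 at 14 months and 8.14, 8.12 and 8.24 at 18 months. Its gap was narrowest at 14 months (-0.49), and it was -1.51 at 6 and -1.62 at 18 months. The lowest bone marrow value of Cyp51, 5.51, lay within the range of the array medians. Also lower were Hsd17b7 (-1.22), Dhcr7 (-0.97), which makes cholesterol in the last step from dehydrocholesterol, and Ebp (-0.90).

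Lbr and Tm7sf2 encode the pair of enzymes that can reduce the same sterol double bond, and they differed between the cell types in opposite directions. Lbr, the lamin B receptor of the inner nuclear membrane, had bone marrow values of 11.35, 11.33 and 11.83 at 6 months, 12.00, 11.74 and 11.80 at 14 months and 11.99, 11.86 and 11.99 at 18 months. Epididymal values of Lbr were 8.92, 7.77 and 7.92 at 6 months, 9.17, 9.20 and 9.25 at 14 months and 7.61, 7.50 and 7.73 at 18 months. Every bone marrow array lay above every epididymal array, by 3.42 (standard error 0.12, adjusted p = 5.61e-15), the largest difference among the 27 on the deposited scale. Tm7sf2, named here after its values were seen, had 6.27, 6.21 and 6.64 at 6 months, 6.58, 6.65 and 6.21 at 14 months and 6.58, 6.82 and 6.85 at 18 months in bone marrow. Epididymal values of Tm7sf2 were 7.81, 7.65 and 7.55 at 6 months, 7.44, 7.92 and 7.99 at 14 months and 8.71, 8.81 and 8.67 at 18 months. It did not overlap either, with a difference of -1.53 (standard error 0.091, adjusted p = 1.49e-11). Loss of Lbr is known to leave neutrophils with poorly lobed nuclei. Beside its difference, all 10 neutrophil markers were higher in bone marrow (median 5.92), and replicate 1 of 6-month epididymal adipocytes, with the highest neutrophil mean of that cell type, read 8.92 for Lbr against 7.77 and 7.92. The 14-month epididymal arrays had neutrophil means of 5.29 to 5.60 and Lbr values of 9.17 to 9.25. At 18 months the epididymal arrays had neutrophil means of 6.85 to 7.40 and Lbr values of 7.50 to 7.73. At 6, 14 and 18 months the epididymal means of the macrophage list were 7.07, 9.01 and 6.09, and those of the B-lineage list 5.88, 6.59 and 5.69. Means of the erythroid list were 6.39, 5.73 and 5.55. The part of RNA from neutrophils or other cells in the difference was not tested. Without replicate 1 of 6-month epididymal adipocytes the Lbr difference was 3.54.

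**Figure D2:**
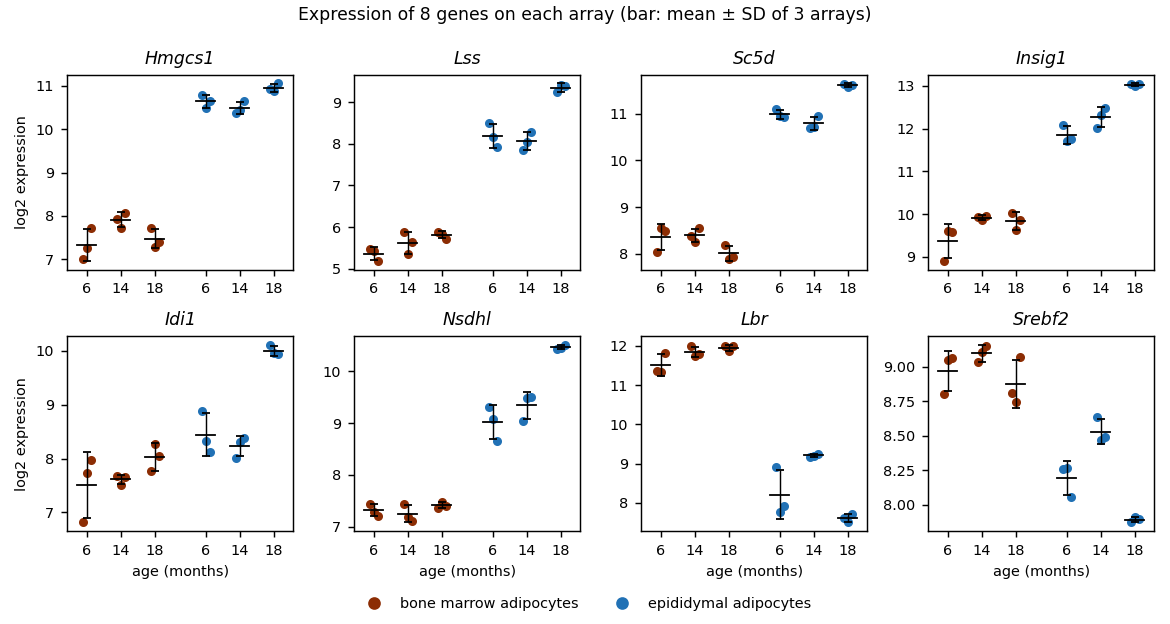
Log2 expression (y axis) of 8 genes on each of the 18 arrays, by age in months (x axis), with bone marrow adipocytes to the left of epididymal adipocytes in each panel. Points are arrays and bars the mean ± SD of 3. The 18-month epididymal arrays lie above the younger ones for Hmgcs1, Lss, Sc5d, Insig1, Idi1 and Nsdhl, and below them for Lbr and Srebf2.

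Among the control genes, the transcription factor and its brakes went opposite ways on the deposited scale. Srebf2, which encodes SREBP2, had 8.81, 9.05 and 9.06 at 6 months, 9.03, 9.11 and 9.16 at 14 months and 8.81, 8.74 and 9.07 at 18 months in bone marrow. Epididymal values of Srebf2 were 8.26, 8.26 and 8.05 at 6 months, 8.64, 8.47 and 8.49 at 14 months and 7.87, 7.91 and 7.89 at 18 months. It was higher in bone marrow at each age with no overlap, 0.78 (standard error 0.065, adjusted p = 2.44e-09) when the ages were averaged. With arrays scaled on ribosomal protein genes that value was 0.028 and was not called, and the sign turned at 6 and 14 months (-0.14 and -0.030). Insig1 had bone marrow values of 8.90, 9.61 and 9.58 at 6 months, 9.93, 9.85 and 9.96 at 14 months and 10.03, 9.62 and 9.85 at 18 months. Epididymal values of Insig1 were 12.09, 11.72 and 11.76 at 6 months, 12.02, 12.32 and 12.48 at 14 months and 13.04, 13.00 and 13.05 at 18 months. Insig1 was lower in bone marrow on every array, -2.68 (standard error 0.099, adjusted p = 9.16e-15). Insig2, the second INSIG, which is not driven by SREBP2, had 7.57, 7.29 and 7.97 at 6 months, 7.93, 7.53 and 7.78 at 14 months and 7.98, 7.57 and 7.57 at 18 months in bone marrow. Epididymal values of Insig2 were 10.43, 10.48 and 10.62 at 6 months, 9.70, 9.91 and 10.26 at 14 months and 10.32, 10.31 and 10.47 at 18 months. It too was lower without overlap, -2.59 (standard error 0.1, adjusted p = 1.81e-14). Scap had 7.73, 7.81 and 7.78 at 6 months, 7.89, 7.87 and 7.70 at 14 months and 7.74, 7.74 and 7.85 at 18 months in bone marrow. Epididymal values of Scap were 8.09, 8.19 and 7.99 at 6 months, 8.01, 8.11 and 8.09 at 14 months and 8.18, 8.10 and 8.07 at 18 months. Both cell types lay close together, and the difference of -0.30 (standard error 0.055, adjusted p = 8.29e-05) is the smallest called over the ages. Mbtps1, a protease that cuts SREBP2 in the Golgi, had -0.83.

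The 3 genes of cholesterol transfer had no common direction on the deposited scale. Stard4, a cytosolic sterol carrier, had 6.92, 7.66 and 7.91 at 6 months, 7.21, 7.39 and 7.30 at 14 months and 7.69, 7.59 and 7.56 at 18 months in bone marrow. Epididymal values of Stard4 were 6.70, 6.31 and 6.12 at 6 months, 7.07, 6.54 and 6.56 at 14 months and 6.86, 7.03 and 6.75 at 18 months. At each age bone marrow was higher (0.81 (standard error 0.12, adjusted p = 5.74e-06) over the ages), and with the ribosomal scaling the difference was 0.060 and not called (-0.020 at 14 months). Npc2, which hands cholesterol to Npc1 inside lysosomes, had a difference of -1.36 (standard error 0.072, adjusted p = 2.03e-12) and lay lower in bone marrow at every age. Npc1, the membrane protein that takes it on, did not pass over the ages (-0.0018 (standard error 0.084, adjusted p = 0.988)) and was called as higher in bone marrow at 18 months only (0.48, adjusted p = 0.00991). With the ribosomal scaling these values were -0.75 (called) and -0.25 (not called).

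Genes that define other cells differed between the preparations along with the pathway. All 9 mature adipocyte markers were lower in bone marrow (median -5.16), as were all 9 fibroblast and mesothelium markers and 5 of 6 endothelial ones. All 10 neutrophil, 6 erythroid and 9 dividing cell markers were higher, as were 9 of 10 macrophage, 8 of 9 B-lineage and 4 of 4 megakaryocyte markers. Their part in the pathway's difference was not tested. The mean of the 27 genes was 7.55 to 7.90 on bone marrow arrays and 8.56 to 9.26 on epididymal arrays.

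In epididymal adipocytes the pathway was raised at 18 months. Of the 27 genes, 16 rose and 2 fell against 6 months, while 8.22% of all probe sets rose and 8.01% fell. The median change was 0.62 for the 27 genes and -0.062 for all probe sets. For 20 genes all 3 arrays of 18 months lay above all 3 of 6 months and for 4 below, against 18.6% and 23.1% of all probe sets. Against 14 months, 18 rose and 3 fell (11.7% and 12.5% of all probe sets, median 0.76). Both comparisons use the same 18-month arrays. With a 2-fold limit, 7 rose and 0 fell against 6 months (0.867% and 1.54% of all probe sets), and 6 rose and 1 fell against 14 months (1.35% and 4.81%). From 6 to 14 months 2 genes rose and 4 fell, against 10.2% and 7.51% of all probe sets, with a median of -0.028.

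**Figure D3:**
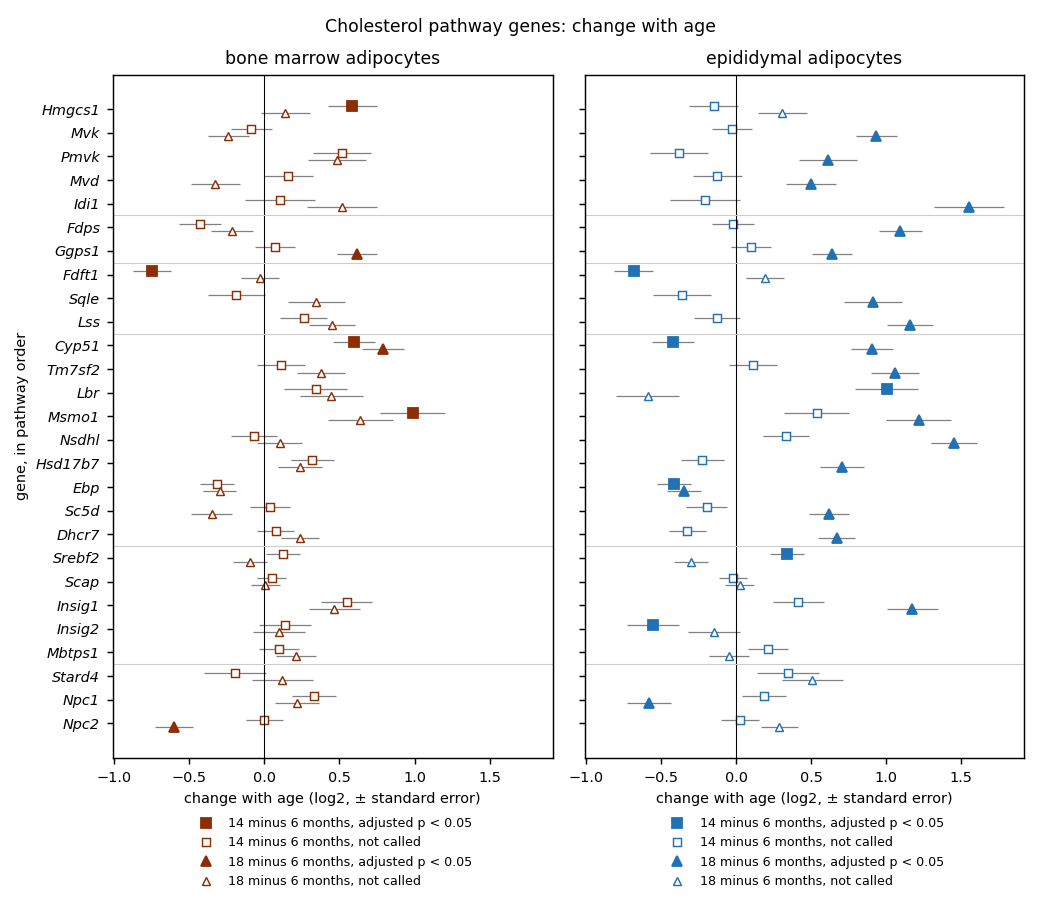
Change with age in log2 units (x axis, bars of 1 standard error) for the 27 genes in pathway order (y axis), in bone marrow (left) and epididymal adipocytes (right). Filled symbols passed an adjusted p under 0.05. At 18 months 16 epididymal genes lie to the right of 0 with filled symbols, and in bone marrow 2 do.

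The rises at 18 months ran along the synthetic route. Of the mevalonate segment, 4 of 5 genes rose against 6 months. Idi1 read 10.10, 9.95 and 9.93 at 18 months, against 8.88, 8.32 and 8.12 at 6 months, a change of 1.55 (standard error 0.23, adjusted p = 0.000164) and the largest of the 27 in this comparison. Mvk rose by 0.93 (standard error 0.14, adjusted p = 0.000119), Pmvk by 0.61 (adjusted p = 0.0365) and Mvd by 0.50 (adjusted p = 0.0448). Hmgcs1 had 0.31 (adjusted p = 0.221), with all 3 arrays of 18 months above those of 6 months, and it was called against 14 months (0.46, adjusted p = 0.0485). That call was kept in 5 of the 18 fits that each left out 1 array, and under 8 of 11 other settings.

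Both prenyl diphosphate synthases rose, Fdps by 1.09 (standard error 0.14, adjusted p = 3.16e-05) and Ggps1 by 0.64 (standard error 0.13, adjusted p = 0.00301). Lss rose by 1.16 (standard error 0.15, adjusted p = 4.65e-05) and Sqle by 0.91 (adjusted p = 0.00298). Fdft1 fell to 8.58, 8.94 and 8.88 at 14 months, against 9.53, 9.49 and 9.42 at 6 months (-0.68, adjusted p = 0.000756), and at 18 months it stood 0.19 from the 6-month level (adjusted p = 0.345). Its 18-month arrays were above those of 14 months by 0.87 (adjusted p = 4.26e-05).

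Between lanosterol and cholesterol 7 of 9 genes rose. Nsdhl read 10.44, 10.45 and 10.51 at 18 months, against 9.31, 9.08 and 8.66 at 6 months (1.45 (standard error 0.15, adjusted p = 3.21e-06)). Msmo1 rose by 1.22, Tm7sf2 by 1.06, Cyp51 by 0.90, Hsd17b7 by 0.71, Dhcr7 by 0.67 and Sc5d by 0.62, with adjusted p from 0.000153 to 0.00412. Ebp fell by 0.35 (adjusted p = 0.039). Lbr rose at 14 months (1.00 (standard error 0.21, adjusted p = 0.00212)) and fell at 18 against 14 months (-1.59, adjusted p = 1.4e-05). Against 6 months its 18-month difference was -0.59 (adjusted p = 0.0646), and -0.23 without the 6-month array that stood apart.

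Of the control genes Insig1 alone rose at 18 months. It read 13.04, 13.00 and 13.05 at 18 months, against 12.09, 11.72 and 11.76 at 6 months (1.17 (standard error 0.17, adjusted p = 0.00012)). Srebf2 rose at 14 months (0.34 (standard error 0.11, adjusted p = 0.044)) and fell at 18 against 14 months (-0.64 (standard error 0.11, adjusted p = 0.000289)). Its 18-month arrays lay below those of 6 months, -0.30 (adjusted p = 0.0776). Insig2 fell at 14 months (-0.56, adjusted p = 0.0315) and had -0.15 at 18 months (adjusted p = 0.617). Scap and Mbtps1 had 0.024 and -0.047 at 18 months, with standard errors of 0.096 and 0.13. Of the transfer genes, Npc1 fell at 18 months (-0.58 (standard error 0.15, adjusted p = 0.0107)), while Stard4 had 0.51 (adjusted p = 0.102) and Npc2 0.29 (adjusted p = 0.127).

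Of the 16 rises, 14 passed under every alternative other than the 2-fold limit and with each single array left out, all but Pmvk and Mvd. The 7 that also passed the 2-fold limit were Idi1, Fdps, Lss, Nsdhl, Msmo1, Tm7sf2 and Insig1. Without the 6-month array that stood apart 18 genes were again called at 18 months, with Ebp no longer called (adjusted p = 0.110) and Stard4 called as higher (0.67). Of the 6 calls of 14 months, Lbr and Fdft1 passed with each of the 18 arrays left out in turn, Ebp in 16, Insig2 in 14, Cyp51 in 7 and Srebf2 in 6 of these fits. Markers of other cells differed with age as well. At 14 months 9 of 10 macrophage markers, 9 of 9 fibroblast and mesothelium markers and 4 of 6 endothelial markers were higher than at 6 months. At 18 months 5, 3 and 4 of these were lower than at 6 months, 1 of 9 mature adipocyte markers was higher (median 0.15), and the mean of the macrophage list was 6.06 to 6.14 at 18, against 6.94 to 7.19 at 6 months. Against 14 months, 9 of 10 macrophage markers (median -3.27), 8 of 9 fibroblast and mesothelium markers (-1.78) and all 6 endothelial markers (-1.80) fell at 18 months, while 5 of 10 neutrophil markers (1.71) and 2 of 9 mature adipocyte markers (0.36) rose. The part of these cells in the rises was not tested.

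**Figure D4:**
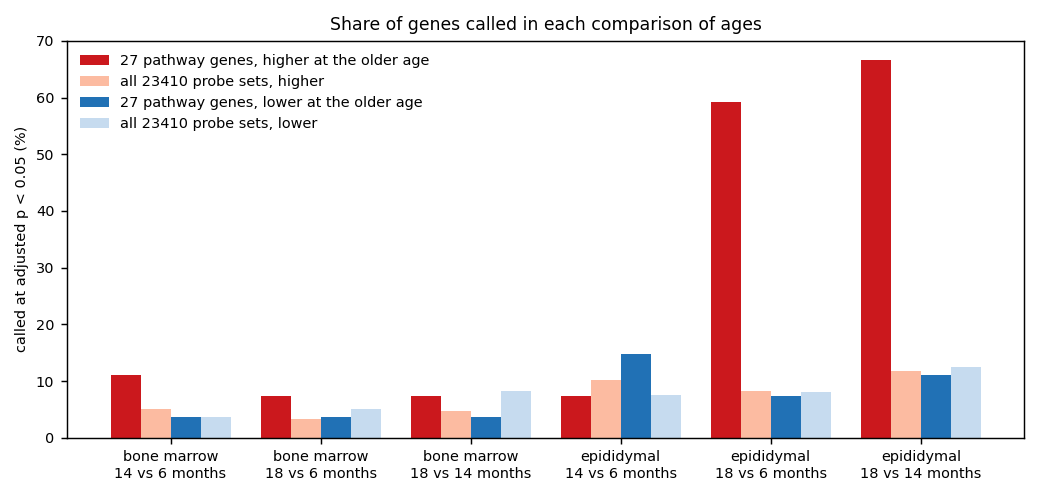
Share of genes called at an adjusted p under 0.05 (y axis, percent) in each comparison of ages (x axis), for the 27 pathway genes (dark bars) and all 23410 probe sets (pale bars), red for higher and blue for lower at the older age. At 18 months in epididymal adipocytes 59.3% of the pathway genes rose against 6 months and 66.7% against 14 months.

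In bone marrow adipocytes few of these genes were called with age. At 14 months 3 rose and 1 fell against 6 months (5.08% and 3.58% of all probe sets), and at 18 months 2 rose and 1 fell (3.37% and 5.13%). The medians were 0.10 and 0.21, against -0.021 and -0.052 for all probe sets. Msmo1 rose at 14 months (0.99 (standard error 0.22, adjusted p = 0.00731)), as did Hmgcs1 (0.58 (standard error 0.16, adjusted p = 0.0309)), and Cyp51 rose at both ages (0.60 and 0.79, adjusted p = 0.0111 and 0.00251). Fdft1 fell at 14 months (-0.75 (standard error 0.13, adjusted p = 0.00122)). Ggps1 rose (0.62 (standard error 0.13, adjusted p = 0.00896)) and Npc2 fell (-0.60 (standard error 0.12, adjusted p = 0.00668)) at 18 months. The 6-month bone marrow arrays had the widest spread of any group (median SD 0.22 over probe sets, against 0.097 to 0.14 elsewhere). When limma was fitted to only the 2 groups compared, 0 of the 27 genes passed at either age. That fit called 1.16% of all probe sets at 14 months and 0.0769% at 18 months. In it 7 of the 27 genes at 14 months and 6 at 18 months had an unadjusted p under 0.05. The share of all probe sets at that unadjusted threshold was not computed, so these counts cannot be read as an excess. An ordinary analysis of variance over all arrays called 3 at each age (6.6% and 5.81% of all probe sets).

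Between 14 and 18 months 2 genes rose and 1 fell in bone marrow (4.75% and 8.23% of all probe sets). Fdft1 read 8.34, 8.16 and 8.39 at 18 months, against 7.54, 7.69 and 7.51 at 14 months (0.72 (standard error 0.13, adjusted p = 0.000939)). Ggps1 rose (0.55 (standard error 0.13, adjusted p = 0.0101)) and Npc2 fell (-0.60 (standard error 0.12, adjusted p = 0.00296)), and these 3 calls passed with each single array left out and under every alternative other than the 2-fold limit, which none of them reached. Idi1, Nsdhl, Lss and Insig1, which rose in epididymal adipocytes at 18 months, had bone marrow changes of 0.52, 0.10, 0.45 and 0.47 from 6 months (adjusted p = 0.19, 0.768, 0.0765 and 0.0992). Markers also moved in bone marrow, where 7 of 9 B-lineage markers rose at 14 months and 4 of 6 endothelial markers fell at 18 months, and their part was not tested.

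The difference between the age changes of the cell types was tested as an interaction. From 6 to 18 months the change in bone marrow was below that in epididymal adipocytes for 6 genes and above it for 2 (5.02% and 3.49% of all probe sets). Nsdhl had -1.35 (standard error 0.22, adjusted p = 0.000787), Fdps -1.31 (standard error 0.20, adjusted p = 0.000488) and Mvk -1.17 (standard error 0.19, adjusted p = 0.000942). Sc5d, Npc2 and Mvd followed with -0.97, -0.89 and -0.83, and Lbr and Npc1 had 1.04 and 0.80. Of these, Npc2 was called as falling in bone marrow (-0.60) and Npc1 as falling in epididymal adipocytes (-0.58). Of these 8, Mvk, Fdps and Nsdhl passed under every alternative and with each single array left out, as did Sc5d except under the 2-fold limit. For Idi1 the interaction missed the threshold (-1.03 (standard error 0.33, adjusted p = 0.0613)) and passed with the gene's other probe set (-1.11, adjusted p = 0.0480). Insig1 and Lss had -0.71 (adjusted p = 0.0812) and -0.71 (adjusted p = 0.0528), so their rises in epididymal adipocytes are not shown to differ from bone marrow.

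From 6 to 14 months 3 genes passed the interaction, all with the change in bone marrow above that in epididymal adipocytes (5.07% of all probe sets), namely Cyp51 (1.02 (standard error 0.20, adjusted p = 0.00174)), Pmvk (0.89 (standard error 0.27, adjusted p = 0.0402)) and Hmgcs1 (0.73 (standard error 0.23, adjusted p = 0.0458)). The Cyp51 call passed under every alternative and with each single array left out, while Pmvk was kept in 7 and Hmgcs1 in 6 of the 18 fits that left out 1 array. Without the 6-month epididymal array that stood apart, Pmvk and Hmgcs1 missed the threshold (adjusted p = 0.0917 and 0.0968).

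SREBP1, encoded by Srebf1, shares SCAP and the INSIGs with SREBP2 and serves fatty acid synthesis. Of 12 genes of that branch, 11 were lower and 1 higher in bone marrow over the ages (median -3.38), with Srebf1 at -2.35 and Fads2, a fatty acid desaturase, the gene that was higher (0.41). Of all probe sets 31.2% were lower and 26.9% higher. In epididymal adipocytes 9 of the 12 rose and 1 fell at 18 against 6 months (median 0.68), while 8.22% of all probe sets rose and 8.01% fell. Acss2, which makes acetyl-CoA from acetate, rose by 1.83 (adjusted p = 8.15e-07), the elongase gene Elovl6 by 1.48 and Fads2 by 1.43. Srebf1 itself had 0.016 (adjusted p = 0.949). In bone marrow 1 of the 12 rose at 18 months and 0 fell (3.37% and 5.13% of all probe sets). The mean of this list was 11.44 to 11.52 on 18-month epididymal arrays, against 10.72 to 10.91 at 6 months.

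LXR is the sterol-activated receptor that drives efflux. Of 8 genes of LXR and efflux, 5 were lower and 1 higher in bone marrow (median -0.48), including Nr1h3, which encodes LXR alpha (-2.66), and its target Abca1, a cholesterol exporter (-2.40). Over all probe sets 31.2% were lower and 26.9% higher in bone marrow. At 18 months in epididymal adipocytes 1 of the 8 rose and 2 fell, while 8.22% of all probe sets rose and 8.01% fell. Of 17 genes of uptake and transfer, 11 were lower and 6 higher in bone marrow (median -0.48), with Cav1, the caveolin of the adipocyte membrane, at -6.58 and Nceh1, a cholesteryl ester hydrolase, at 2.01. At 18 months 2 of these rose and 2 fell in epididymal adipocytes, and the mean of the list was 8.87 to 8.91 at 18, against 8.85 to 8.93 at 6 months. The counts of this list stand beside the same shares of all probe sets.

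**Figure D5:**
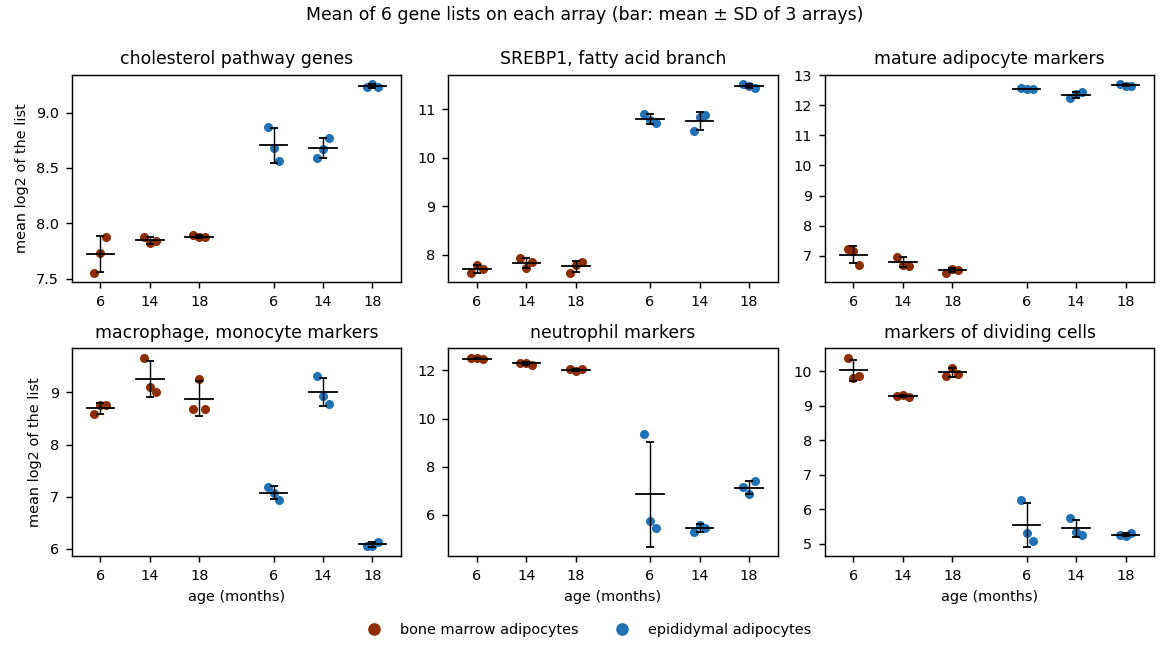
Mean log2 value of 6 gene lists (y axis) on each of the 18 arrays, by age in months (x axis), with bone marrow adipocytes to the left of epididymal adipocytes in each panel. Points are arrays and bars the mean ± SD of 3. The cholesterol and SREBP1 lists are highest on the 18-month epididymal arrays, where macrophage markers are lowest, and 1 epididymal array of 6 months stands apart in neutrophil markers.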

How the data were processed

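RNA of bone marrow and epididymal adipocytes, 3 pools for each cell type and age, was hybridized to 18 arrays. The authors processed the scans in Partek Genomics Suite 6.3 by gcRMA followed by quantile normalization, then took log2. These deposited log2 values were used unchanged. Quantile normalization assumes like distributions in all arrays, so differences are relative to the other genes of an array. The build behind the probe annotation is not given in the sources used here. The table holds 35556 probe sets, and tests ran on 23410, those with a gene symbol, of which 1621 have several.

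The 18 arrays were fitted together in limma 3.58.1 under R 4.3.3, each group having its own mean, with p-values adjusted by Benjamini-Hochberg within each of the contrasts. Lists are described by counts and medians beside those of all probe sets. The members and lists were chosen with earlier results of these data known. Values of every array are given for the 4 largest called rises and falls between cell types, the 4 largest called age changes in each cell type, the 4 largest differences of age changes, and Srebf2, Scap, Insig1 and Insig2. Alternatives changed which probe sets were tested, how variances were moderated, the scaling and weighting of arrays, the groups in the fit, a replicate block and the fold limit, and left out single arrays. The fit was tested on simulated data with known changes. Only 3 arrays per group limit the precision. Promoter sequences are from RefSeq (GRCm38.p6). Figures were drawn with Python 3.11.15 and matplotlib 3.10.9.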

Additional observations from a re-analysis of the deposited data

Results flagged for a closer look

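The change with age differed between bone marrow and epididymal adipocytes, by the interaction term of the limma model, for 11 results, given as bone marrow minus epididymal. From 6 to 18 months the bone marrow change was below the epididymal one for Fdps, -1.31 (adjusted p = 0.000488), Nsdhl, -1.35 (adjusted p = 0.000787), and Mvk, -1.17 (adjusted p = 0.000942). The same held for Sc5d, -0.97 (adjusted p = 0.00422), Npc2, -0.89 (adjusted p = 0.00422), and Mvd, -0.83 (adjusted p = 0.0331). The bone marrow change was above the epididymal one for Lbr, 1.04 (adjusted p = 0.0376), and Npc1, 0.80 (adjusted p = 0.0229). From 6 to 14 months it was above for Cyp51, 1.02 (adjusted p = 0.00174), Pmvk, 0.89 (adjusted p = 0.0402), and Hmgcs1, 0.73 (adjusted p = 0.0458). Mvk, Fdps, Nsdhl and Cyp51 passed under every alternative and with each single array left out, as did Sc5d except under the 2-fold limit, and the other 6 each missed the threshold under at least 1 of them.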

How the results depend on the processing

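All 27 genes stayed called between cell types at 18 months with each single array left out. Leaving out single arrays gave 26 called over the ages and 27 at 18 months in every case, 23 to 25 at 6 months and 19 to 24 at 14 months. The age counts ran from 2 to 6 (bone marrow, 14 against 6 months), 3 to 9 (18 against 6), 3 to 7 (18 against 14), and in epididymal adipocytes from 2 to 9, 15 to 21 and 18 to 22. The interactions ran from 1 to 6 at 14 months and 5 to 11 at 18 months. Single arrays that moved a count by over 1.5 times were, in bone marrow, 14-month replicate 3 (2 called at 14 months), 6-month replicate 3 (9 at 18 months), and 6-month replicate 1 and 18-month replicate 1 (7 and 5 for 18 against 14 months). In epididymal adipocytes 6-month replicate 2 and 14-month replicates 1 and 2 gave 3, 3 and 2 called at 14 months. The interaction at 14 months gave 6 without 6-month bone marrow replicate 3, 5 without 14-month epididymal replicate 3, and 1 without 14- or 18-month bone marrow replicate 3, 14-month epididymal replicate 1 or 2, or any 18-month epididymal array. The interaction at 18 months gave 5 without 18-month bone marrow replicate 3 or 18-month epididymal replicate 1 or 2. Shares of all probe sets in these fits are not given here, so a moved count may reflect a change in all calls.

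With a 2-fold limit 15, 14 and 12 genes were called over the ages, at 6 and at 14 months. The same limit on the age comparisons, added after seeing the data, left 0, 0 and 0 called in bone marrow (14 against 6, 18 against 6 and 18 against 14 months), 1, 7 and 7 in epididymal adipocytes, and 1 and 4 for the interactions at 14 and 18 months. Of all probe sets this limit left 10.2% higher and 11.6% lower over the ages. In epididymal adipocytes it left 0.867% and 1.54% at 18 against 6 months, and 1.35% and 4.81% against 14 months. For the other comparisons its shares of all probe sets are not given here, so those counts stand without a background. A fit of only the groups compared called 0 and 0 in bone marrow at 14 and 18 against 6 months. Of all probe sets it called 1.16% and 0.0769%. It called 5 for 18 against 14 months (16.4% of all probe sets) and 1 for the interaction at 14 months (8.29%). Repeated quantile normalization gave 5 in bone marrow at 18 months (9.53% of all probe sets). Centring on ribosomal protein genes gave 6 there (7.79%). In epididymal adipocytes at 14 months it gave 10, 1 higher and 9 lower, against 5.14% and 26.3% of all probe sets. On the deposited scale 2 were higher and 4 lower, against 10.2% and 7.51%. For the interaction at 14 months this centring gave 6 (16.8%). It turned Srebf2 to -0.14 at 6 and -0.030 at 14 months, Stard4 to -0.020 at 14 months and Npc1 to -0.25 at 18 months between cell types, by a shift of the median of all probe sets of -0.93, -0.60 and -0.73 at 6, 14 and 18 months. Its counts between cell types were 1 higher and 24 lower at 6 and 14 months and 1 and 23 at 18 months. All probe sets had 8.18% and 81.6% at 6 months, 9.95% and 71% at 14 months, and 9.61% and 77.1% at 18 months. Centring on the median gave 5 for the interaction at 14 months (13.9% of all probe sets), where the median over all probe sets shifted by 0.15. Array weights gave 7 in bone marrow for 18 against 14 months (19.1%) and 10 in epididymal adipocytes at 14 months (24.1%). Leaving out probe sets under the median gave 5 in bone marrow for 18 against 14 months (25%). Testing all 35556 probe sets gave 3 in epididymal adipocytes at 14 months (12.5%). For the interaction at 14 months it gave 1 (7.14%), as did ordinary analysis of variance (10.3%). Whether same-numbered arrays of the 2 cell types share animals was not given. Deviations of same-numbered arrays correlated from -0.14 to 0.15 over 9 pairs, which cannot decide it, since pools of the same animals need not deviate alike. With the number as a fixed replicate block the interaction at 14 months gave 1 (10.2% of all probe sets). A random replicate block had a within-block correlation of -0.036. The causes were not tested.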

Other observations

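Over the ages 31.2% of all probe sets were lower and 26.9% higher in bone marrow, and in epididymal adipocytes 8.22% rose and 8.01% fell at 18 against 6 months. Of 12 enzymes that use isoprenoids for prenylation, ubiquinone and dolichol, 7 were lower and 2 higher in bone marrow over the ages (median -0.38), with Coq2, which prenylates the ubiquinone ring, at -1.27 and Zmpste24, the protease that matures prelamin A, at 0.61. In epididymal adipocytes 1 rose at 18 against 6 months and 0 fell, the riser being Dhdds of dolichol synthesis (0.55, adjusted p = 0.0347). Of 10 genes for sterol sensing and for the transport and turnover of its proteins, 5 were lower and 3 higher in bone marrow (median -0.11). At 18 months in epididymal adipocytes Sec23a rose (0.66, adjusted p = 0.00495) and Sec24a fell (-0.86, adjusted p = 0.000221), both coat proteins of the vesicles that leave the endoplasmic reticulum, and the other 8 did not pass.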
